A study of Mus musculus with 18 samples.

Results

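Stem keratinocytes of the hair follicle bulge were examined in dissociated mouse back skin that had been stretched by an implanted expander and in control skin. Bulge cells were chosen by their own transcripts. A kept droplet needed at least 200 genes, at least 500 unique molecular identifiers (UMIs, each standing for 1 captured transcript) and at most 10% mitochondrial UMIs. Among these, bulge cells had Krt5 and Krt14 together at 0.3% or more of UMIs, no UMI of the leukocyte gene Ptprc and at least 3 UMIs of Krt24, Lhx2 and Cd34 together. They also had Krt1 and Krt10 below 0.2% of UMIs, fewer than 2 UMIs of Krt79 and fewer than 3 UMIs of Mki67, Top2a, Cdk1 and Birc5. These limits were set against differentiating, upper follicle and dividing cells, and cells within them can still express genes of such cells. The rule gave 1690 bulge cells among 47251 kept cells and among 4489 keratinocytes, the latter being all kept cells that met the Krt5, Krt14 and Ptprc conditions. For comparison, 948 basal keratinocytes met every condition except that they had 0 UMIs of Krt24, Lhx2 and Cd34.

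All mice had surgery, in which a path was opened beneath the back skin from an incision near the tail, and mice of the expanded arm then received a hydrogel expander under the skin near the neck while control mice received none. Skin was taken on day 1, 2 or 4, live cells were sorted, and mice of one arm and sequencing round were pooled into 1 library. Each arm had 5 libraries, from day 1 in rounds 1 and 2, day 2 in rounds 1 and 2, and day 4 in round 1, and per-library values below follow that order. Strain and age were not given in the labels, the libraries are pools of mice, and p-values measure the spread between pools.

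The bulge is the part of the outer root sheath, below the sebaceous gland, where slow-cycling stem cells rest between hair cycles. These cells carry Krt15, Cd34 and the transcription factors Lhx2, Sox9, Nfatc1 and Tcf7l1, are held quiet by BMP signals, and are called into growth by Wnt signals from the dermal papilla. After wounding they can leave the follicle and contribute to repair of the surface epidermis, where migrating keratinocytes switch on the keratins Krt6a, Krt16 and Krt17.

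Control libraries contained 150, 108, 14, 126 and 97 bulge cells, and expanded libraries contained 356, 629, 40, 51 and 119. The 2 expanded libraries of day 1 therefore held the most bulge cells, and the control library of day 2 round 1 was the thinnest. The median bulge cell had 7088.5 to 10754 UMIs in control libraries and 10377 to 14889.5 in expanded libraries, so UMIs per cell differed between the arms as well. No bulge cell barcode was shared between libraries, and at most 18 kept barcodes were shared by any pair. Hashing antibodies, which tag cells by mouse in 8 of the 10 libraries, gave 253 of 1184 bulge cells to a mouse. Another 345 carried 2 hashtags at similar levels, 51 of 345 hashed control bulge cells and 294 of 839 expanded ones, and no doublet caller was run. Hashtag counts in bulge cells were low, with a median of 8 to 38 for the leading hashtag by library. Of cells with 2 or more Ptprc UMIs, 97.4% to 99.6% by library were given to a mouse. Whether bulge cells with 2 hashtags were doublets was not tested. The assigned bulge cells were spread unevenly over the pooled mice. In expanded day 1 round 2, 102 of 120 came from 1 mouse, and in expanded day 2 round 1, 12 of 12. In control day 1 round 2 the leading mouse had 15 of 21, and in control day 4, 19 of 33. A library may thus rest largely on 1 mouse. Values are therefore given per library.

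The first question was whether bulge cells made up another share of the keratinocytes after expansion. Their share was 29.3% ± 8.31 (SD, n = 5) in control and 37.4% ± 12.0 (SD, n = 5) in expanded libraries. Library by library it was 41.3%, 19.5%, 25.0%, 33.0% and 27.6% in controls and 50.8%, 47.1%, 24.0%, 38.6% and 26.6% in expanded skin. It was higher in the expanded library in 3 of 5 pairs, on day 1 and in round 2 of day 2, and the arms overlapped. The difference was 8.14 percentage points (exact permutation of the libraries, two-sided, p = 0.254), and 0.00794 is the smallest p that 5 against 5 libraries can give. As a share of all kept cells, bulge cells were 1.59% in control and 6.01% in expanded libraries, higher in 5 of 5 pairs (exact permutation p = 0.0714). Keratinocytes as a whole were also a larger share of kept cells in the expanded library of each pair. They were 6.23%, 6.68%, 2.56%, 6.54% and 4.68% of kept cells in control and 23.7%, 22.7%, 4.92%, 6.85% and 13.1% in expanded libraries. Because the rule counts UMIs, keratinocytes were also thinned to 5000 UMIs each, which gave 22.6% and 28.3% (exact permutation p = 0.341).

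**Figure D1:**
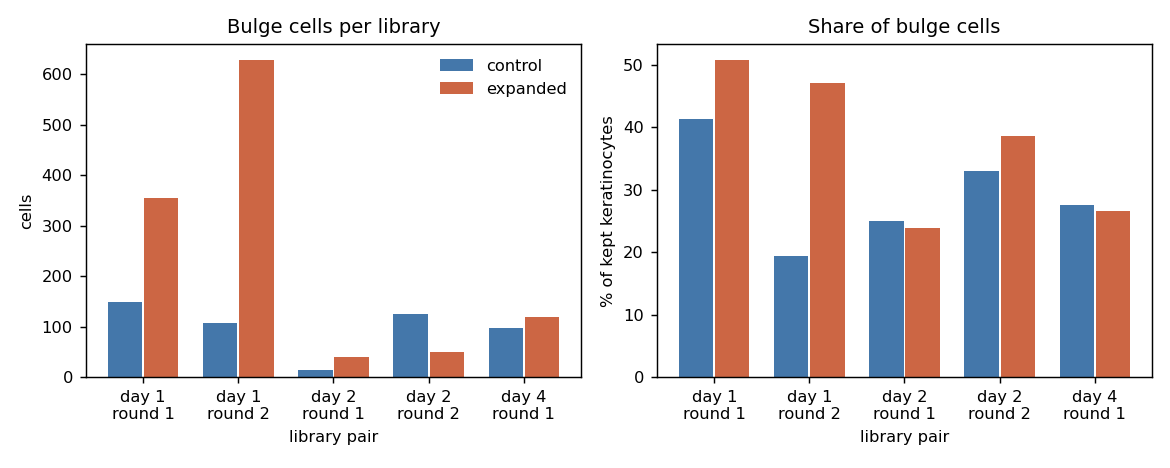
Number of bulge cells in each library (left, cells) and their share of kept keratinocytes (right, %), by library pair, with control libraries in blue and expanded libraries in orange; each bar is 1 library. The 2 expanded libraries of day 1 hold 356 and 629 cells, and the share is higher in the expanded library in 3 of 5 pairs.

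Bulge markers that the rule did not use were higher in the chosen cells. Krt15, a keratin of the bulge, averaged 9507 CPM (UMI counts scaled to a common total per library) in bulge cells and 4124 CPM in the basal comparison cells, and was higher in bulge cells in 10 of 10 libraries. Lgr5, a receptor that amplifies Wnt signals, averaged 186 CPM against 21.4 CPM, and the secreted Wnt modulator Dkk3 162 CPM against 10.5 CPM, both in 10 of 10 libraries. The matrix protein gene Postn averaged 1029 CPM against 282 CPM and the transcription factor Tcf7l1 26.3 CPM against 4.99 CPM. Sox9, a transcription factor that follicle stem cells need, was at 745 CPM against 513 CPM, again higher in each of the 10 libraries. Differences were smaller for Nfatc1 (119 CPM against 72.2 CPM), which keeps the cells quiescent, and for Foxc1 (78.9 CPM against 61.2 CPM), each higher in 8 of 10 libraries. Cd200 (84.6 CPM against 52.7 CPM) and Fgf18 (19.1 CPM against 0.711 CPM), a growth factor of resting follicles, were higher in 9 of 10. Fgf18 had no UMI in the 14 bulge cells of control day 2 round 1. These differences describe cells that were chosen by their transcripts, so no test is given.

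**Figure D2:**
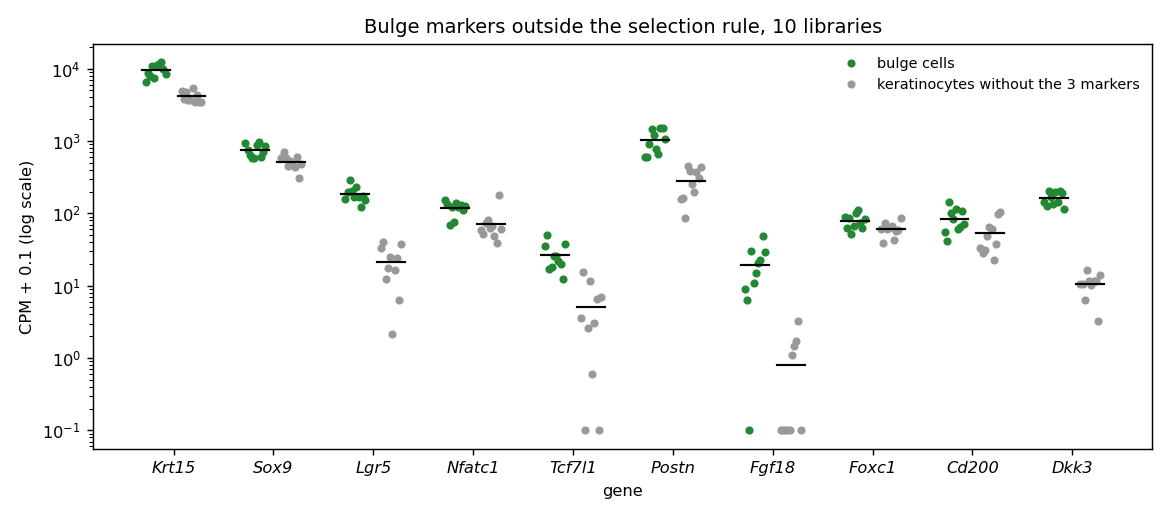
Level of 10 bulge marker genes that the selection rule did not use (log axis, CPM plus 0.1), with each point 1 of the 10 libraries and the black line their mean, for bulge cells (green) and keratinocytes with 0 UMIs of Krt24, Lhx2 and Cd34 (grey). Krt15, Lgr5, Postn, Tcf7l1, Sox9 and Dkk3 are higher in bulge cells in 10 of 10 libraries.

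The threshold of 3 UMIs cut through a gradient. Cells with 2 UMIs of Krt24, Lhx2 and Cd34, just outside the rule, had 5996 CPM of Krt15 and 150.0 CPM of Lgr5 (206 cells). Cells with 3 UMIs, just inside, had 5003 CPM and 145 CPM (170 cells). Cells with over 10 UMIs had 12845 CPM of Krt15 and 209 CPM of Lgr5 (805 cells), and cells with 0 UMIs had 4069 CPM and 19.3 CPM. In all, 466 keratinocytes had 1 or 2 such UMIs, and 200 reached 3 UMIs but failed another condition.

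Bulge cells were not uniform among themselves. All 3 selecting genes were detected in 43.1% of them, Lhx2 and Cd34 without Krt24 in 21.8%, Lhx2 alone in 19.2% and Cd34 alone in 3.55%. With the cells of each arm pooled, Lhx2 with Cd34 was found in 30.5% of control and 18.2% of expanded bulge cells. Lhx2 alone was found in 25.5% and 16.6%, and Cd34 alone, a gene that fibroblasts also express, in 7.27% and 2.01%. Cells are not replicates, and the 2 expanded libraries of day 1 gave 356 and 629 of the 1195 expanded cells. The arm shares therefore lean on day 1, and no test is given. The lack of a UMI in a single cell does not show that a gene is silent. After thinning each cell to 3000 UMIs, the 730 cells with a Krt24 UMI had 14821 CPM of Krt15, against 8687 CPM in the 948 without, and were higher in 9 of 9 libraries that could be compared. Postn and the hemidesmosome collagen Col17a1 were also higher with Krt24 in 9 of 9 libraries. The other genes of the rule, whose levels the selection conditions, went opposite ways, Cd34 at 374 CPM with Krt24 and 226 CPM without, and Lhx2 at 362 CPM and 441 CPM. Krt17, a keratin of the outer root sheath and of stressed keratinocytes, went the other way, with 1045 CPM in cells with Krt24 and 3564 CPM in cells without, and was lower with Krt24 in 9 of 9 libraries. Lrig1, which marks stem cells of the upper follicle, had 18.3 CPM with Krt24 and 39.4 CPM without, and Gli1, a Hedgehog target, had 16.4 CPM and 28.5 CPM.

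A second division ran along Krt14. Of 1623 thinned bulge cells, 149 (9.18%, between 2.63% and 15.0% by library) had no Krt14 UMI. Their Krt5 is fixed by the rule, which asks for Krt5 and Krt14 together, and Krt15 was at 14474 CPM against 11348 CPM in the others. Cells without Krt14 had 7217 CPM of Krt17 against 2023 CPM in the others, 121 CPM of Fgf18 against 15.8 CPM, and 33.6 CPM of Bmp6, a ligand that restrains follicle stem cells, against 2.49 CPM. The Wnt antagonist gene Wif1 was at 237 CPM against 33.2 CPM, Tgfb2 at 280 CPM against 17.9 CPM and Nfatc1 at 244 CPM against 127 CPM, whereas Lgr5 was at 85.0 CPM against 211 CPM. Genes of differentiating keratinocytes were also higher in cells without Krt14, with Krtdap at 779 CPM against 61.5 CPM, Sbsn at 1993 CPM against 555 CPM and Calml3 at 790 CPM against 272 CPM. Among the selecting genes, whose levels the rule conditions, Krt24 was lower, at 311 CPM against 671 CPM. Lhx2 was higher, at 570 CPM against 403 CPM, as was Cd34, at 351 CPM against 282 CPM. Fgf18 and Bmp6 are known products of the inner, Krt6-positive layer of the bulge. Krt6a itself was at 412 CPM in cells without Krt14 and 463 CPM in cells with it. Both divisions were made after the values were seen and are descriptions.

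The rule's own genes differed between the arms in level. Krt24 was at 71.1, 221, 68, 374 and 119 CPM in control libraries and 719, 915, 548, 473 and 171 CPM in expanded libraries. The highest control library (day 2 round 2) lay above the lowest expanded library (day 4). Lhx2 ran from 301 to 484 CPM in control and from 157 to 460 CPM in expanded libraries, and Cd34 from 259 to 469 CPM and from 211 to 396 CPM. With the cells of each arm pooled, those with all 3 genes were 28.1% of control and 49.4% of expanded bulge cells. These shares lean on the libraries with the most cells, which in expanded skin were those of day 1. Expanded cells also tended to have more UMIs each. No test is given because these genes chose the cells.

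RNA of fibroblasts in bulge cells differed between the arms. The summed level of 10 fibroblast marker genes in bulge cells was 4147 to 32162 CPM in control and 380.2 to 3040 CPM in expanded libraries, and 10 of 10 markers were detected in both arms. In the basal comparison cells it was 374 to 1388 CPM and 74.9 to 257 CPM. Droplets with at least 1% of UMIs from 10 genes of fibroblasts, vessels, melanocytes and Schwann cells (among them Col1a1, Dcn, Pecam1, Rgs5 and Pmel) numbered 40 of 495 in control and 15 of 1195 in expanded skin. At a limit of 0.1%, they numbered 140 and 52, and control day 1 round 1 alone had 49.3% of its bulge cells over it. These are called mixed droplets here, and results are given with and without them, an analysis at the 1% limit that was chosen after seeing the data. Whether a droplet held a fibroblast, a piece of one or free RNA cannot be told apart.

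Gene levels in bulge cells were then compared between the arms by summing UMIs per library and testing them with edgeR's quasi-likelihood method, in which day was a factor. Of 8528 genes tested, 408 (4.78%) passed an adjusted p of 0.05, with 167 higher (1.96%) and 241 lower (2.83%) in expanded skin. The 5 libraries of one arm lay wholly above or below those of the other for 306 genes (3.59%). Without droplets over the 1% limit, 142 genes passed, 89 higher and 53 lower. List counts given below without mixed droplets stand against these totals, not against the 1.96% and 2.83%. Of the 167 genes that rose, all were tested without mixed droplets and 80 passed again, while of the 241 that fell, 184 were tested and 49 passed again. The count also depended on single libraries, from 121 without control day 1 round 1 to 492 without expanded day 2 round 1, and was 73 when each cell was thinned to 3000 UMIs.

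**Figure D3:**
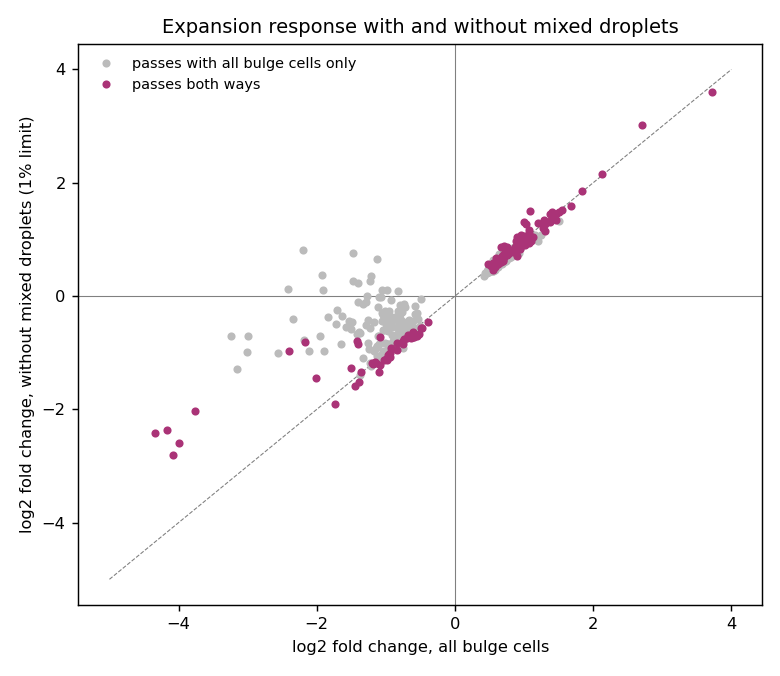
Log2 fold change (expanded against control) of genes that passed with all bulge cells, against their log2 fold change without mixed droplets (1% limit); each point is 1 gene, purple where it passed both ways, and the dashed line marks equal values. Rises lie along the line, with 80 of 167 passing both ways, and the largest falls lie above it, with 49 of 184 passing.

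Enzymes of cholesterol synthesis were higher in bulge cells of expanded skin. Cells make cholesterol from acetyl-CoA through mevalonate and squalene, and the transcription factor SREBP2 switches on the pathway when sterols run low. Of 23 genes for synthesis, uptake and control listed after the first results were seen, 21 were tested, 10 rose and 0 fell, against a background of 1.96% of all genes higher. All 21 had a positive log2 fold change, with a median of 0.71 against 0.0016 over all genes tested. Without mixed droplets, where fewer genes passed over all, 8 of 21 passed, all higher, and the median was 0.80.

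Idi1, which isomerizes isopentenyl diphosphate, was at 27.4, 46.5, 93.5, 75.2 and 79.1 CPM in control and 109.7, 143, 223, 188 and 178 CPM in expanded libraries. The lowest expanded library, day 1 round 1, lay above the highest control library. The log2 fold change was 1.50 ± 0.17 (SE), with an adjusted p of 1.5e-04 by edgeR. Fdps, the next enzyme, which makes farnesyl diphosphate, was at 32.1, 62, 42.5, 82 and 80.7 CPM in control and 111, 154, 285, 219.9 and 143 CPM in expanded libraries. Again the arms did not overlap, and the log2 change was 1.46 ± 0.22 (SE, adjusted p by edgeR 0.0016). Hmgcs1, which makes the HMG-CoA that enters the pathway, was at 165, 206, 178, 150.4 and 148 CPM in control and 295, 368, 352, 338 and 262 CPM in expanded libraries, without overlap (log2 change 0.92 ± 0.14 SE, adjusted p by edgeR 0.0014). Msmo1, a demethylase late in the pathway, was at 39, 49.6, 17, 45.6 and 52.1 CPM and 71.6, 92.7, 104, 102 and 134 CPM, with a log2 change of 1.12 ± 0.18 (SE, adjusted p by edgeR 0.0023). Its call was lost when cells were thinned to 3000 UMIs (0.83, edgeR adjusted p 0.149). Srebf2, the gene of SREBP2 itself, rose less (0.57 ± 0.13 SE, edgeR adjusted p 0.022), and Insig1, which holds SREBP2 back when sterols abound, rose by 0.66 ± 0.17 (SE, edgeR adjusted p 0.041). Nsdhl, Lss and Mvk also passed, at 1.40, 1.15 and 0.87, from mean levels below 32 CPM in both arms. Sqle, the squalene epoxidase, had 53.9 CPM in control and 77.4 CPM in expanded skin (log2 fold change 0.38, edgeR adjusted p 0.293).

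Promoter sequence of these genes was read from RefSeq (build GRCm38.p6) because the genes moved together, and 17 of the 23 had an entry. The 250 bases before the start of the transcript were searched on both strands for a core of the sterol response element, TCACNCCAC, and for the CCAAT box, CCAAT. The sterol core was found in 1 of 17 genes, Hmgcs1, and in 1.05% of the 32851 promoters of the table. CCAAT was found in 16 of 17 genes and in 33.8% of all promoters, or 37.5% of all genes when any promoter of a gene counts. Promoters of Hmgcs1 (chr13:119690101-119690350, plus strand) and Idi1 (chr13:8885356-8885605, plus strand) are shown, the first for its sterol core and both for their CCAAT boxes, with matches of either strand in capitals (ATTGG is CCAAT on the other strand).
Hmgcs1: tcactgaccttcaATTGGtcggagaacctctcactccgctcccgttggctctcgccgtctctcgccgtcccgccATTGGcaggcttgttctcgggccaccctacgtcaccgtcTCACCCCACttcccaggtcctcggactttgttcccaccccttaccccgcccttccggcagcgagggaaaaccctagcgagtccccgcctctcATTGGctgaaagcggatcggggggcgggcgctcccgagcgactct
Idi1: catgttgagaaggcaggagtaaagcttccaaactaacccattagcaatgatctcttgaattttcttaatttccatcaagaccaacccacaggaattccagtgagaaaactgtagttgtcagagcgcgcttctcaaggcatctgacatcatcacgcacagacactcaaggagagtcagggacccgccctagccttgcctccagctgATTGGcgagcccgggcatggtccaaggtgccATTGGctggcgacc
A match is a run of letters and was not tested for binding.

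The cold-inducible RNA-binding proteins rose as a pair. Rbm3, which is induced by mild cold and other stress, was at 459, 440.4, 365, 512 and 533 CPM in control and 1030.0, 1348, 1336, 1198 and 1172 CPM in expanded libraries. The arms were far apart, and the log2 change was 1.37 ± 0.14 (SE, adjusted p by edgeR 7.5e-05). Cirbp, its relative, was at 134, 87.9, 76.5, 107 and 75.7 CPM in control and 325, 259, 229, 235 and 191 CPM in expanded libraries, also without overlap (log2 change 1.30 ± 0.15 SE, adjusted p by edgeR 1.6e-04). Cells with 2 or more Ptprc UMIs (leukocytes) had Rbm3 at 643, 607, 562, 649 and 640.0 CPM in control and 1248, 1505, 1304, 1189 and 1491 CPM in expanded libraries. Levels of 2 heat shock chaperones fell, of which Hsph1 was named after its value was seen. Hsph1, an HSP110 chaperone, was at 56.4, 43.4, 76.5, 42.5 and 61.4 CPM in control and 25, 26.6, 21.1, 29.8 and 18.7 CPM in expanded libraries, without overlap (log2 change -1.14 ± 0.18 SE, adjusted p by edgeR 0.0027), but Hsph1 did not pass when cells were thinned to 3000 UMIs (adjusted p 0.074). Hsp90aa1, the inducible HSP90, fell by 0.61 ± 0.13 (SE) on the log2 scale, from a mean of 1378 CPM to 886 CPM (edgeR adjusted p 0.019). Of 18 tested genes in the list of redox and stress genes, 4 rose and 1 fell, against 1.96% of all genes higher and 2.83% lower. The others that rose were Gpx2 and Mt2, and Mt2 passed in 11 of 20 alternatives. In these tallies, leaving out control day 2 round 1 and asking for at least 20 cells per library are counted separately although they gave the same fit.

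**Figure D4:**
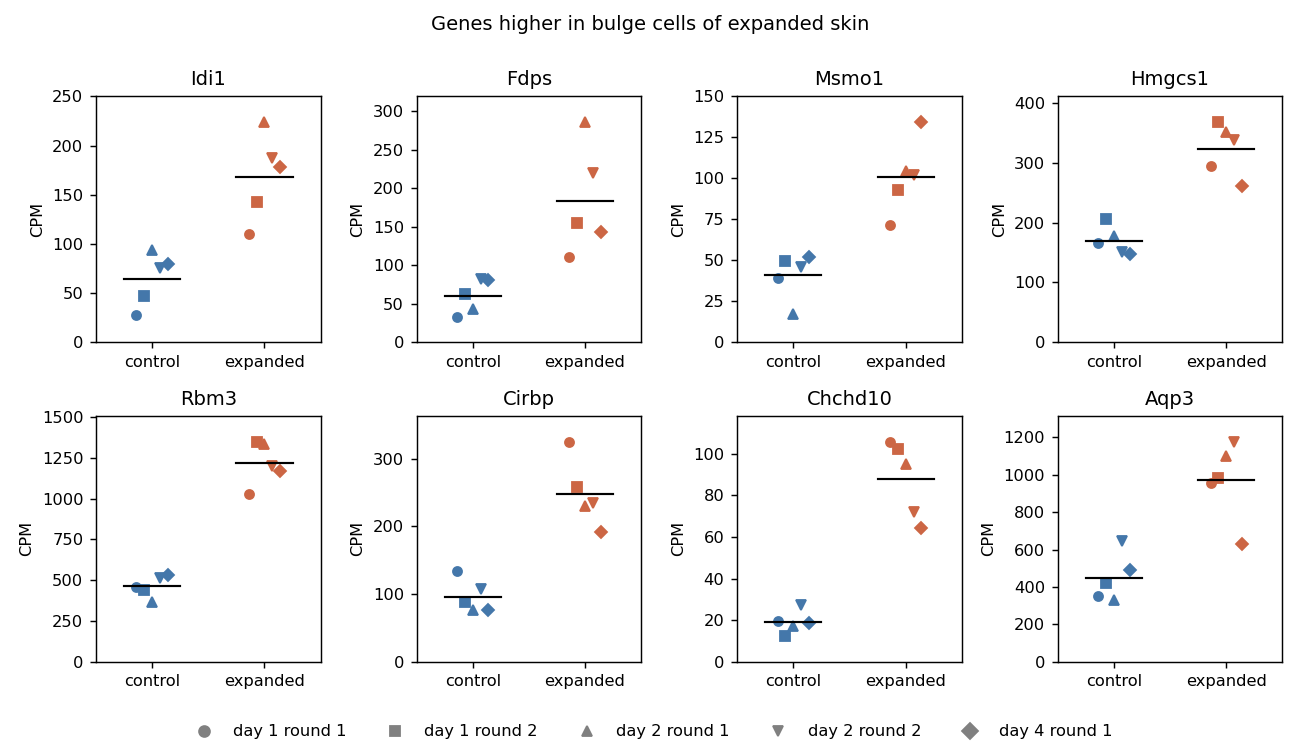
Level (CPM) of 8 genes in bulge cells, with each point 1 library (symbols give day and sequencing round) and the line the mean of 5 libraries per arm, for control (blue) and expanded (orange) skin. Arms do not overlap for Idi1, Fdps, Msmo1, Hmgcs1, Rbm3, Cirbp and Chchd10; for Aqp3 the expanded library of day 4 lies below the highest control library.

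The largest rise by the naming rule was Chchd10, a small protein of the mitochondrial intermembrane space, with 19.5, 12.4, 17, 27.3 and 18.5 CPM in control and 106, 102, 95.1, 72.1 and 64.5 CPM in expanded libraries. The lowest expanded library, day 4, lay well above the highest control library, and the log2 change was 2.13 ± 0.19 (SE, adjusted p by edgeR 2.9e-05). A list of 90 nuclear genes, taken by the symbols of the respiratory complexes and ATP synthase, was also made after its values were seen, and it includes some that are not subunits, such as the assembly factors Uqcc1, Uqcc2 and Uqcc3. Of these, 84 were tested, 19 rose and 1 fell, against 1.96% of all genes higher and 2.83% lower. A positive log2 fold change was found for 79 of the 84, against 50.3% of all genes, with a median of 0.38 against 0.0016. Cox5b of cytochrome c oxidase rose by 0.75 ± 0.115 (SE, edgeR adjusted p 0.0018) from 230.4 CPM to 390.2 CPM. Uqcrq of complex III rose by 0.74 and Atp5g3 of ATP synthase by 0.69. The gene that fell, Ndufa4l2, is a hypoxia-induced relative of a complex IV subunit. Without mixed droplets, where fewer genes passed over all, 8 of 83 rose and 0 fell, with a median of 0.38. In the basal comparison cells, 8 of 82 rose and 0 fell, with a median of 0.37, against 1.58% of all genes tested there higher and 1.90% lower. The difference in response between bulge and basal cells passed for 0 of 84, against 3 of 8281 genes (0.0362%) over all. A count of 0 is near that share and does not show that the responses were alike. In glycolysis and hypoxia, 3 of 18 tested genes rose and 0 fell, against 1.96% and 2.83% of all genes. They were Ldha (0.70 ± 0.15 SE), Gapdh (0.59 ± 0.12) and Pkm (0.56 ± 0.13), with edgeR adjusted p of 0.018, 0.012 and 0.031. Gapdh has near-identical copies in the genome and its count is uncertain. Ldha lost its call in 3 of 20 alternatives, Gapdh in 2 and Pkm in 9, with edgeR adjusted p for Pkm up to 0.107.

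Genes of defence and transport followed. Lcn2, an iron-binding protein released by stressed epithelia, was at 1.58, 1.03, 0, 1.52 and 9.25 CPM in control and 36.6, 19.1, 19.6, 49.7 and 75.4 CPM in expanded libraries, from 17 UMIs in all control bulge cells. The arms did not overlap, and the log2 change was 3.72 ± 0.39 (SE, adjusted p by edgeR 8.0e-05). Neutrophils also make Lcn2, and the 4 neutrophil markers summed to 0 to 3.10 CPM in control and 5.68 to 22.4 CPM in expanded bulge cells. Cells with 2 or more Ptprc UMIs had 0.738, 19.1, 0.736, 5.66 and 3.47 CPM and 62.9, 147, 98, 151 and 92.7 CPM of Lcn2. The part of neutrophil RNA in the result was not tested. Defb6, a beta-defensin, also rose (log2 change 2.70 ± 0.62 SE, adjusted p by edgeR 0.024), but passed in 11 of 19 alternatives. The other 11 of 13 tested alarm and antimicrobial genes did not pass, against a background of 4.78% of all genes passing in either direction. Aqp3, a water and glycerol channel, was at 353, 422, 331, 648 and 489 CPM in control and 959, 983, 1101, 1175 and 632 CPM in expanded libraries, with overlap in 1 library of each arm (log2 change 1.06 ± 0.18 SE, adjusted p by edgeR 0.0044). Ifitm3, an antiviral membrane protein, averaged 354 CPM and 757 CPM (1.08 ± 0.22 SE, edgeR adjusted p 0.014), the only gene of 12 tested in the interferon list that passed. Its call was lost without control day 1 round 1 (edgeR adjusted p 0.064) and without the day covariate (0.149). The prostaglandin transporter Slco2a1 averaged 58.0 CPM and 136 CPM (1.30 ± 0.26 SE, edgeR adjusted p 0.011), and also lost its call without control day 1 round 1 (adjusted p 0.072) or round 2 (adjusted p 0.0505). The glutathione peroxidase Gpx2 averaged 17.2 CPM and 67.9 CPM, with 171 CPM in expanded day 2 round 2 and at most 46.8 CPM in the other expanded libraries (log2 change 1.68 ± 0.36 SE, adjusted p by edgeR 0.018), and passed in 15 of 20 alternatives. The host gene Snhg3 and the mitochondrial protein gene Tmem160 rose by 1.38 ± 0.14 and 1.03 ± 0.18 (SE, edgeR adjusted p 7.1e-05 and 0.0050). Chchd10, Idi1, Fdps, Snhg3, Rbm3, Cirbp, Aqp3 and Tmem160 passed in all 20 alternative analyses run for them, and Lcn2 in all 19. The 12 largest rises by the naming rule, which include all of these but Lcn2, passed without mixed droplets at either limit.

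The 12 largest falls by the naming rule were Meg3, Efemp1, Fbn1, Fgl2, Clec3b, Ccdc80, Eln, Rarres2, Aebp1, Tnfaip6, Has1 and Col15a1. Most of them encode matrix or secreted proteins of dermal fibroblasts, such as the elastic fibre proteins fibrillin 1 (Fbn1) and elastin (Eln). Fbn1 was at 75.3, 102, 17, 28.9 and 80.7 CPM in control and 7.28, 6.38, 7.55, 1.24 and 2.46 CPM in expanded bulge cells, and its log2 change was -3.83 ± 0.27 (SE, adjusted p by edgeR 5.5e-06). Efemp1, another elastic fibre protein, was at 94.8, 57.9, 25.5, 31.1 and 45.4 CPM and 5.33, 6.52, 1.51, 0 and 2.96 CPM. The 2 control libraries of day 1, which have the highest fibroblast marker sums, are also high here. Without droplets over the 1% limit, Efemp1 was at 9.71, 2.58, 0, 4.82 and 14.3 CPM in control libraries, 4 of the 12 genes were still tested and 1 passed, Fgl2 (log2 fold change -2.03, edgeR adjusted p 0.015). At the 0.1% limit, 1 was tested, Aebp1, and did not pass (adjusted p 0.163). The list of migration and matrix genes moved with them, with 6 of 16 lower (Fn1, Lox, Mmp14, Mmp3, Timp3 and Vcan) and 0 higher, against 2.83% of all genes lower and 1.96% higher. Without mixed droplets, where fewer genes passed over all, 0 of 11 passed in either direction. The median log2 fold change of the list was -0.74 with and -0.29 without mixed droplets.

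Some falls also passed without mixed droplets. These were chosen after their values were seen, by applying the naming rule to the analysis at the 1% limit. Colec12, a scavenger receptor, was at 91.1, 235, 76.5, 136 and 144 CPM in control and 54.2, 85, 12.1, 49.7 and 72.4 CPM in expanded libraries, and at 88.8, 235, 65.1, 136 and 139 CPM and 53.7, 84.3, 11.3, 49.7 and 72 CPM without mixed droplets. Its log2 fold change was -1.36 with and -1.35 without them (edgeR adjusted p 0.021 and 0.037), and the arms overlapped in both. Abi3bp, an extracellular matrix protein, fell by 1.50 with and 1.26 without them on the log2 scale (edgeR adjusted p 0.0079 and 0.032). Pdzrn4, an E3 ligase gene, had 113, 58.9, 221, 129.9 and 80.7 CPM in control bulge cells and 66.1, 34.7, 58.9, 77 and 29.1 CPM in expanded ones, and fell by 1.08 with and 1.22 without mixed droplets (edgeR adjusted p 0.015 and 0.011). In the basal comparison cells Pdzrn4 did not exceed 4.89 CPM in any library. Cldn1, a claudin of epidermal tight junctions, was at 164, 154, 34, 62.3 and 139 CPM and 63.2, 77.2, 21.1, 29.8 and 118 CPM, lower in 5 of 5 pairs with overlap between the arms (log2 change -0.97 ± 0.19 SE, adjusted p by edgeR 0.011). Serpinh1, the collagen chaperone, averaged 85.0 CPM in expanded and 153 CPM in control skin without mixed droplets (log2 fold change -0.84, edgeR adjusted p 0.021), against -1.41 with them. The chemokine gene Cxcl12 fell by 0.75 and 0.85 (edgeR adjusted p 0.036 and 0.028), and the transcriptional repressor gene Bach2, which is below the level set for naming, by 1.73 and 1.91. With all bulge cells, leaving out control day 1 round 1 ended the edgeR calls of Pdzrn4 (adjusted p 0.096), Cldn1 (0.062) and Cxcl12 (0.154), and leaving out control day 1 round 2 or day 2 round 2 ended that of Colec12 (0.092 and 0.068). Thinning each cell to 3000 UMIs evens out UMIs per cell but also discards many counts, which lowers power. It ended the edgeR calls of Pdzrn4 (adjusted p 0.119) and Colec12 (0.074). Without the day covariate, Pdzrn4 (edgeR adjusted p 0.118), Colec12 (0.075), Cldn1 (0.293), Abi3bp (0.129) and Cxcl12 (0.177) did not pass. Cxcl12 passed in 11 of 20 alternatives.

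Of 4 lists that describe the state of the stem cell, those for Wnt signals and for quiescence had no gene past the test. Over all genes 4.78% passed, and 0 or 1 gene in lists of this length is near that share. Such counts do not show that the state was unchanged. For bulge identity, 1 of 28 tested genes rose and 0 fell. That gene, Hopx, a homeodomain protein of bulge cells, had 351 CPM in control and 525 CPM in expanded skin (log2 change 0.63 ± 0.14 SE, adjusted p by edgeR 0.023), and passed in 12 of 20 alternatives, not in those without mixed droplets (0.52, edgeR adjusted p 0.074 at the 1% limit), with adjusted p up to 0.180. Krt15 was at 6612, 8691, 7818, 11033 and 7386 CPM in control and 11207, 11690.5, 12212, 9934 and 8484 CPM in expanded libraries (log2 change 0.36 ± 0.13 SE, adjusted p by edgeR 0.126). Sox9 (0.20), Nfatc1 (0.12), Lgr5 (-0.18) and Postn (0.19) had edgeR adjusted p between 0.384 and 0.751. Of 19 tested Wnt genes, 0 passed, among them the secreted antagonists Sfrp1 (0.20 ± 0.15 SE, edgeR adjusted p 0.481) and Sostdc1 (0.35 ± 0.20 SE, adjusted p 0.352). Of 20 tested genes for quiescence and entry into the cell cycle, 0 passed, with Cdkn1a, an inhibitor of the cycle, at -0.23 ± 0.17 (SE) and Myc at 0.13 ± 0.22 (SE). The rule left out cells with 3 or more UMIs of Mki67, Top2a, Cdk1 and Birc5, so entry into division could not be seen. For BMP and TGF-beta signals, 0 of 20 rose and 4 fell, Grem1, Ltbp1, Tgfb2 and Tgfbr2, against 1.96% and 2.83% of all genes. Without mixed droplets 1 fell, the BMP antagonist Grem1 (log2 fold change -0.68, edgeR adjusted p 0.040). Grem1 passed in 7 of 20 alternatives, with adjusted p up to 0.230.

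Lists of genes known to answer to stretch and injury were read against a background of 1.96% of all genes higher and 2.83% lower. In lists this short, 0 or 1 gene passing is near that share and does not show that a response was absent. Of 22 tested AP-1 and immediate early genes, 0 passed, and Fos, the most abundant of those named, had 11886 CPM in control and 11079 CPM in expanded skin (log2 fold change -0.09 ± 0.10 SE). Digestion of tissue also induces these genes, and its part was not tested. Of 17 tested YAP and TAZ targets, 0 rose and 1 fell, Tgfb2, and 3 had a positive log2 fold change, with a median of -0.39 (-0.38 without mixed droplets) against 0.0016 over all genes. Among them Ccn1 averaged 1100.0 CPM and 786 CPM (log2 change -0.49 ± 0.15 SE, adjusted p by edgeR 0.089). Of 10 tested EGF receptors, ligands and feedback genes, 0 had a positive log2 fold change, with a median of -0.37 (-0.46 without mixed droplets), and 0 passed. Of 22 tested actin and SRF target genes and 13 tested junction genes, 0 rose. Cnn3 of the actin list fell (log2 fold change -0.97, edgeR adjusted p 0.038), but did not pass without mixed droplets. The EGF receptor ligand Areg passed without them (-1.94, adjusted p 0.048), and was named after its value was seen. Of 19 tested hemidesmosome and basement membrane genes, Col4a1 and Frem2 fell and 0 rose, and only Frem2 passed without mixed droplets (-1.35, edgeR adjusted p 0.024). Col4a1 passed in 7 of 20 alternatives and Frem2 in 10 of 19. Of 8 tested cytokine and chemokine genes, Ccl7, Csf1 and Il6 fell, and 0 of 7 passed without mixed droplets.

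Among the 4 tested wound-induced keratins, 0 passed, where 4.78% of all genes did. Krt6a was at 664, 402, 178, 495 and 540.0 CPM in control and 384, 527, 574, 634 and 424 CPM in expanded bulge cells, with full overlap (log2 change 0.09 ± 0.26 SE, adjusted p by edgeR 0.906). Krt17 averaged 2766 CPM and 2172 CPM (-0.28 ± 0.21 SE), and Krt16 136 CPM and 79.2 CPM (-0.87 ± 0.48 SE). In the basal comparison cells Krt6a was at 282, 588, 6.19, 408 and 137 CPM and 469, 641, 1909.6, 1154 and 1451 CPM. The value of 6.19 CPM came from 20 cells. Its log2 change in basal cells was 1.81 ± 0.59 (SE) and did not pass either (edgeR adjusted p 0.090). The difference in response between bulge and basal cells was -1.79 ± 0.43 (SE) on the log2 scale and did not pass after adjustment over all genes (edgeR adjusted p 0.231).

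The last comparisons asked where the bulge response differed from that of the other basal keratinocytes and whether it changed over days. In the basal cells 216 of 6218 genes passed (3.47%). The difference in response passed for 3 of 8281 genes (0.0362%), with 588 at an unadjusted p under 0.05, and for 1 gene, Efemp1, with the pair of libraries as a block. Efemp1 and Tnxb, both fibroblast matrix genes, differed in response by -2.86 ± 0.39 and -2.45 ± 0.42 (SE, log2, bulge minus basal), and neither passed without mixed droplets (-0.36 and 0.50, edgeR adjusted p 0.982 and 0.921). The third was Hbb-bs, a hemoglobin gene of red blood cells, and 2706 of its 2726 UMIs in expanded day 1 round 2 and 2175 of 2176 in expanded day 2 round 1 came from 1 droplet each. For the sterol genes, 5 of 19 tested rose in basal cells and 0 fell, against 1.58% of all genes tested there higher and 1.90% lower. Their median log2 fold change in basal cells was 0.76. In the test of the difference in response 0 of 21 passed, which is near the 0.0362% of all genes. Idi1 and Fdps had 1.92 and 1.86 in basal cells against 1.50 and 1.46 in bulge cells. Aqp3 and Lcn2 also passed in basal cells, at 1.16 and 1.88 (edgeR adjusted p 0.0018 and 0.022), against 1.06 and 3.72 in bulge cells. Their differences in response did not pass (edgeR adjusted p 0.968 and 0.427). Slco2a1 had 1.30 in bulge and 0.07 in basal cells, and the difference of 1.17 ± 0.26 (SE) did not pass (edgeR adjusted p 0.221). Chchd10 had 2.13 and 1.28, and Rbm3 1.37 and 1.29 (edgeR adjusted p of the difference 0.375 and 1). A change of the expansion effect with day passed for 0 of 8528 genes in edgeR, with 211 at an unadjusted p under 0.05, and for 3 with the pair of libraries as a block. Day 4 had 1 library per arm, and DESeq2 was not run for this comparison.

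**Figure D5:**
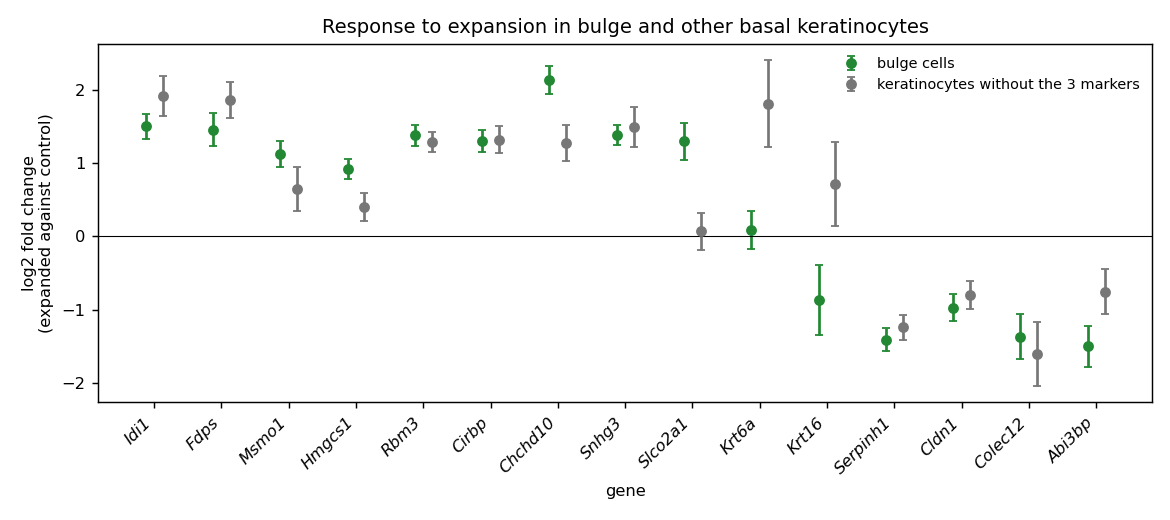
Log2 fold change of expanded against control skin (point) with its standard error (bar) from edgeR, for 15 genes, in bulge cells (green) and in keratinocytes with 0 UMIs of Krt24, Lhx2 and Cd34 (grey). Idi1, Fdps, Rbm3 and Cirbp lie above 0 in both. Krt6a lies at 0.09 in bulge cells and 1.81 in the others and passed in neither (edgeR adjusted p 0.906 and 0.090).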

How the data were processed

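The values are UMI counts per gene and droplet, deposited by the authors without normalization; the submitters' processing notes name Cell Ranger 6.1.2 and build mm10. Counts of 10 libraries held 32285 genes and 55174 barcodes, with 17726739 to 75470722 gene UMIs per library, and intervals cover counting error only. Antibody lists of the hashing samples were used to name hashtags. Bulge cells, gene lists and comparisons were chosen with earlier results of these data known, and the cholesterol and respiratory lists after their values were seen. No doublet caller was run, and mixed droplets were marked by 10 marker genes.

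Counts were summed per library and tested with edgeR 4.0.16 (R 4.3.3; TMM, filterByExpr, quasi-likelihood F test, Benjamini-Hochberg over all genes tested), with day as a factor. DESeq2 1.42.0 was an alternative. Levels are counts divided by the summed UMIs of the cells and scaled to a common total (CPM). The difference in response used class by arm with library as a block, and the change with day used arm by day. Shares were compared by exact permutation of libraries (252 arrangements). Genes with near-identical copies, such as Gapdh, Fdps, Mt1 and Mt2, have uncertain counts. Standard errors are the log2 fold change divided by the root of F.

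Named genes were the 12 largest rises and 12 largest falls that passed, went the same way in 5 of 5 pairs and reached 50 CPM in an arm, up to 4 genes that passed from each of 18 lists, filled to 2 by level, and the leading genes of the other comparisons. Genes of the rule, ribosomal and mitochondrial genes and markers of other cell types were not eligible. Pairs share day and sequencing round per the labels, and deviations of paired libraries correlated by 0.074 to 0.333. On simulated data, in a fit of 8286 genes, 43 of 50 rises (86%) and 34 of 45 falls (75.6%) of size 1 on the log2 scale were recovered. Some genes are not reported here.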

Additional observations from a re-analysis of the deposited data

Results flagged for a closer look

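In 170 groups of 5 libraries checked for a library far from the rest (the share of bulge cells and 84 named genes), 8 had one, where chance gives about 1 in 20. Gpx2 was at 171 CPM in expanded day 2 round 2, with the next library at 46.8 CPM. Pkm was at 572 CPM in the same library, with the next at 425 CPM. Hba-a1 was at 2802 CPM and Hbb-bs at 3285 CPM in expanded day 2 round 1, where 1 droplet held 1855 of 1856 and 2175 of 2176 UMIs. Among control libraries, Hbb-bs was at 24.3 CPM in day 2 round 2, Lcn2 at 9.25 CPM in day 4, Snhg3 at 76.5 CPM in day 2 round 1, and Myc at 99.5 CPM, the lowest, in day 2 round 2.

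The response to expansion differed between bulge and basal cells by test for Efemp1 (-2.86, log2), Tnxb (-2.45) and Hbb-bs (8.35). Efemp1 and Tnxb are fibroblast genes that did not pass without mixed droplets, and for Hbb-bs 2 droplets held nearly all UMIs.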

How the results depend on the processing

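The share of bulge cells did not pass in any alternative, with differences of 4.80 to 11.5 percentage points when 1 library was left out. The genes changed with expansion in bulge cells, 408, became 1019 without the low-count filter, 73 with cells thinned to 3000 UMIs, 100 without mixed droplets at 0.1%, 142 at 1%, 2.5e+02 (151 higher and 101 lower) when Krt24 or Lhx2 was required and 119 without the day covariate; leaving out 1 library gave 121 to 492, and the libraries that lowered it by over 1.5 times were control day 1 rounds 1 and 2 and expanded day 1 round 2 (121, 180 and 218). DESeq2 called 572 and the replicate block 507. The 3 genes that differed between bulge and basal cells became 100 without the filter, 1 when thinned, 0 without mixed droplets at 0.1%, 1 when Krt24 or Lhx2 was required, 1 with the replicate block and 2 to 8 with 1 library left out (6 without expanded day 2 round 1 and 8 without expanded day 4). The 0 genes whose effect changed with day became 53 without the filter, 1 with at least 20 cells per library, 3 with the replicate block and 0 to 1 with 1 library left out. The replicate block changed no call on the share (p = 0.25 by exact permutation within pairs), and among named genes it changed 3 of 88: Mt1 newly passed (1.09), and the Hbb-bs (7.18) and Tnxb (-2.45) differences no longer did. Of 1677 values of named genes under alternatives, in which leaving out control day 2 round 1 and asking for at least 20 cells repeat the same fit, 1404 kept direction and side of the threshold, 236 no longer passed, 19 newly passed and 18 changed sign. Without mixed droplets at 1%, Csf1 became 0.27, Ifi202b 0.37, Ly6a 0.76, Tgfbr2 0.083 and the Tnxb difference 0.50 (0.45 at 0.1%). Krt6a, H2-D1, Atf3 and Myc, which did not pass, also changed sign. Krt6a was -0.13 with at least 20 cells and -0.040 thinned, and -0.13 to 0.30 with 1 library left out; H2-D1 was -0.14 and, with no day covariate, -0.031, and -0.14 to 0.14; Atf3 ran from -0.21 to 0.027 and Myc from -0.048 to 0.35. The cause of these shifts was not tested. Few cells limit day 2, where control round 1 had 14.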
